A study of Mus musculus with 2 samples.

Results

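The Dlk1-Dio3 imprinted cluster was described through 4 genes, Meg3, Rian, Mirg and Dlk1, found by their symbols among the 32285 genes listed in the files. All 4 were found once each. They were measured by droplet single-cell RNA sequencing in cultures of mouse embryonic stem cells of the inbred strain C3H/HeSn-Paf/J. The cultures were a mixture of 9 lines, 3 from XX, 3 from XO and 3 from XY embryos, kept in serum medium with leukaemia inhibitory factor, on gelatin and irradiated mouse embryonic fibroblasts, called feeders. The library of time 1 was made at an early passage and that of time 2 after 10 more passages. Both libraries share strain, medium and the use of feeders, and both came from the mixture of 9 lines. A cell cannot be assigned to its line, so the proportions of the lines at each time are not known. The part of a shift in these proportions in the differences between times was not tested. With 1 library per time there was no replicate and no test between times: the 95% intervals below cover counting error only.

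Levels are unique molecular identifiers (UMIs, counted RNA molecules) summed over the cells of a group and scaled to counts per 1000000 UMIs of that group (CPM). Pou5f1-positive cells had at least 18000 UMIs and at least 10 UMIs of Pou5f1, the gene of the pluripotency factor OCT4. They numbered 21839 of 23039 filtered cells at time 1 and 24810 of 25666 at time 2, with median depths of 44478 and 50837 UMIs. Each of the 8 pluripotency markers was found in more than 50% of them at both times. Pou5f1 is 1 of the 8 and chose the cells, so its detection was fixed in advance. Feeders were cells under 10 Pou5f1 UMIs with at least 20 UMIs over 3 or more of 9 fibroblast markers, and numbered 209 and 309, at median depths of 50746 and 48819 UMIs. The fibroblast markers summed to 3633 CPM in feeders and 34.9 CPM in Pou5f1-positive cells at time 1, and to 3156 and 34.6 CPM at time 2. Feeders were chosen by these markers, so their higher sum follows from that choice. None of the 9 was at 0 in either population, and 179 and 228 Pou5f1-positive cells carried 20 or more of their UMIs. Barcodes shared between the libraries numbered 142 among Pou5f1-positive cells.

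Imprinted genes are transcribed from the copy inherited from 1 parent. In this domain of mouse chromosome 12 the maternal copy makes the long noncoding RNAs Meg3, Rian and Mirg, which host small nucleolar RNAs and microRNAs, and the paternal copy makes the proteins Dlk1, a Notch-like membrane protein, Rtl1, derived from a retrotransposon, and Dio3, which inactivates thyroid hormone. A methylated control region between Dlk1 and Meg3 sets the 2 states, and silencing of Meg3 on both copies is a known form of variation between mouse pluripotent lines. Parental copies were not told apart here, so maternal and paternal below name the copy that usually makes an RNA.

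In GENCODE M21 (GRCm38) all 4 genes lie on the plus strand. Dlk1, protein coding, is at chr12:109452823-109463336, Meg3, a long intergenic noncoding RNA, at chr12:109541001-109571726, Rian, a processed transcript, at chr12:109603940-109661716 and Mirg, a long intergenic noncoding RNA, at chr12:109729764-109749460. No other gene listed in the files overlaps them in this annotation on either strand.

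The 250 bases upstream of the RefSeq starts of Meg3, Rian and Dlk1 (GRCm38.p6) are shown for orientation. A link between these windows and the RNA levels given below was not tested. Capitals mark CG dinucleotides, the bases that imprint methylation uses. The windows are chr12:109540746-109540995 for Meg3, chr12:109603695-109603944 for Rian and chr12:109452573-109452822 for Dlk1, all on the plus strand.
Meg3 upstream window: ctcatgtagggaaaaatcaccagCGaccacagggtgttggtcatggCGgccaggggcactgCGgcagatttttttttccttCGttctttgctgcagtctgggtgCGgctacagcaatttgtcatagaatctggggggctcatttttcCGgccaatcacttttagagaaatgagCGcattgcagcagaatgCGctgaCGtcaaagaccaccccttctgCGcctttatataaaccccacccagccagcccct
Rian upstream window: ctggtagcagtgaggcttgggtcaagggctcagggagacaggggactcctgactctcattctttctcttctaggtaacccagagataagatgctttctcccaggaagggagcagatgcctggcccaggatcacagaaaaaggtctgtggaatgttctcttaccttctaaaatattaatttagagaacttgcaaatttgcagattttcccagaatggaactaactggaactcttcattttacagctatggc
Dlk1 upstream window: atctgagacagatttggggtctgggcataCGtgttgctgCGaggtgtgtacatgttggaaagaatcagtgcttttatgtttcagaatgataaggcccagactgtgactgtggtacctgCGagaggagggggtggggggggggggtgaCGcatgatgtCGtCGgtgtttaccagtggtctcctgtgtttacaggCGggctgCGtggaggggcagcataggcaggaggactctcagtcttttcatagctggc
The Meg3 window held 10 CG, the Dlk1 window 8 and the Rian window 0. Of 32851 windows of this length, 92.1% held at least 1 CG, 37.8% at least 10 and 43% at least 8. TGCCGC, the hexamer bound by ZFP57 when methylated, occurred once in the Meg3 window and in 8.68% of all windows, and TGACGTCA, the cyclic AMP response element, once in the Meg3 window and in 1.55% of all windows, each searched on both strands. The 2 motifs share no base there, and neither was in the Rian or Dlk1 window. The RefSeq start of Mirg falls inside the GENCODE gene, so its window is not shown, nor is that of a later RefSeq start of Meg3.

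RefSeq placed 3 mature microRNAs inside Meg3, all in exons, 6 inside Rian, none of them in an exon, and 26 inside Mirg, 10 of them in exons. MicroRNAs were not measured by this assay, which counts polyadenylated RNA from its 3' end. A few of those carried by the host RNAs are shown for orientation, with the seed (bases 2 to 8) in capitals. They are miR-770-5p in an exon of Meg3 at chr12:109563710-109563731, miR-370-3p in an intron of Rian at chr12:109618305-109618326, and 4 in Mirg. Of the latter, miR-134-5p at chr12:109734145-109734166 and miR-410-3p at chr12:109743764-109743784 are exonic. The intronic pair of miR-453, at chr12:109735669-109735692, and miR-496a-5p, at chr12:109739132-109739152, has the only seed that occurs more than once among the 35 mature microRNAs.
miR-770-5p: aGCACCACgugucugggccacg
miR-370-3p: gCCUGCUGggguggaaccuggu
miR-134-5p: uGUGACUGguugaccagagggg
miR-410-3p: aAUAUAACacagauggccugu
miR-453: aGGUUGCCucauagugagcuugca
miR-496a-5p: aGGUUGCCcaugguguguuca

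The 3 noncoding RNAs of the maternal copy were lower at time 2 in Pou5f1-positive cells, and Dlk1 differed least. Meg3 stood at 273 CPM (95% interval 272 to 274) in the early library and 141 CPM (140 to 142) in the later. Its log2 ratio of CPM plus 1, time 2 over time 1, was -0.95 (-0.96 to -0.94), a level 1.94 times higher at time 1. Rian, the host of most small nucleolar RNAs of the domain, had 73.7 CPM (73.2 to 74.2) and then 31.9 CPM (31.6 to 32.2), a log2 ratio of -1.19 (-1.20 to -1.17). Mirg, which carries the microRNA cluster at the far end of the maternal transcripts, had 11.3 CPM (11.2 to 11.5) and 4.03 CPM (3.93 to 4.14), a log2 ratio of -1.29 (-1.33 to -1.26). The level of Dlk1 was 2.95 CPM (2.85 to 3.06), against 2.38 CPM (2.31 to 2.46) after passaging, a log2 ratio of -0.23 (-0.28 to -0.18). These intervals hold no spread between cultures. With this many UMIs, the intervals of the 2 libraries parted even where levels differed little. Snrpn, another imprinted gene, stood at 183 CPM (182 to 183) and 179 CPM (178 to 180).

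Of the 9387 genes that reached 5 CPM in 1 or both libraries, 3.09% were at least 2-fold lower at time 2 and 1.03% at least 2-fold higher. Of the 3 members that reached 5 CPM, Rian and Mirg were past 2-fold lower and Meg3 lay just inside it, while Dlk1 was below 5 CPM in both libraries. Their log2 ratios lay at the 1.69th (Rian), 1.18th (Mirg) and 3.68th (Meg3) percentile of the genes tested, whose median was -0.045. Scaling by the trimmed mean of M values (TMM) moves that median to 0.065. With it, 203 genes were at least 2-fold lower and 140 higher, in place of 290 and 97. Under it Meg3 had -0.84, Rian -1.08 and Mirg -1.20. In the 18381 and 22420 Pou5f1-positive cells with at most 1 UMI of a fibroblast marker, Meg3 stood at 266 and 132 CPM. Its log2 ratio there was -1.01, past 2-fold. These cells still held fibroblast marker UMIs, at 5.87 and 4.55 CPM.

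In feeders the maternal RNAs were also lower at time 2, by less. Their Meg3 level was 1134 CPM (1116 to 1153) early and 764 CPM (751 to 778) later, a log2 ratio of -0.57 (-0.60 to -0.53). Rian stood at 191 CPM (184 to 199) and 137 CPM (131 to 142), and Mirg at 24.3 CPM (21.7 to 27.2) and 13.6 CPM (11.9 to 15.4). Dlk1 had 22.3 CPM (19.8 to 25) and 24.5 CPM (22.2 to 27), with a log2 ratio of 0.13 (-0.08 to 0.35) that spans 0. None of the 4 reached 2-fold, against 1.89% of 9734 genes at least 2-fold lower and 1.11% at least 2-fold higher in feeders. Stem cell transcripts in the feeder group differed between the times too, with the 8 pluripotency markers summing to 546 and 190 CPM, the 5 primed markers to 52.9 and 21.5 CPM, the 6 naive markers to 185 and 233 CPM, and log2 ratios of -1.65 for Dnmt3b and -1.64 for Dppa3. Their part in the lower members was not tested. Feeders are not descendants of the stem cells, and whether the 2 libraries held feeders of the same preparation is not given in the sources used here.

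Every member was higher in feeders than in Pou5f1-positive cells at both times. At time 1 the ratio of CPM was 4.15 (4.08 to 4.22) for Meg3, 2.59 (2.49 to 2.7) for Rian, 2.14 (1.91 to 2.4) for Mirg and 7.55 (6.66 to 8.52) for Dlk1. The corresponding ratios at time 2 were 5.42, 4.29, 3.36 and 10.3. The RNAs did not keep 1 proportion to each other: Meg3 gave 3.7 UMIs per Rian UMI in Pou5f1-positive cells and 5.93 in feeders at time 1, and 4.42 and 5.59 at time 2. Per fibroblast marker UMI, Pou5f1-positive cells held 7.82 and 4.07 Meg3 UMIs at the 2 times, against 0.312 and 0.242 in feeders. Feeders were chosen for a minimum of fibroblast marker UMIs, the divisor of this ratio, so a lower value in feeders follows from that choice. The part of feeder RNA in the Meg3 of Pou5f1-positive cells was not tested.

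Barcodes under 1000 UMIs were called drops and taken as a guide to free RNA. They numbered 4449 of 145288 barcodes at time 1 and 7491 of 52242 at time 2, and held 3797283 and 4783950 UMIs. Meg3 in them stood at 348 CPM (329 to 367) in the first library and 411 CPM (393 to 429) in the second. Rian in these drops stood at 151 and 142 CPM, Mirg at 26.1 and 15.5 CPM and Dlk1 at 2.11 and 2.93 CPM. Meg3, Rian and Mirg were thus higher in drops than in Pou5f1-positive cells at each time, and Meg3 in drops was not lower at time 2. The proportion differed too, at 2.3 and 2.89 Meg3 UMIs per Rian UMI in drops. No cell type known to lack Meg3 was measured. Pou5f1 in feeders reached 6.6% and 4.02% of its level in drops, but feeders were chosen for fewer than 10 Pou5f1 UMIs, which caps this value.

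**Figure D1:**
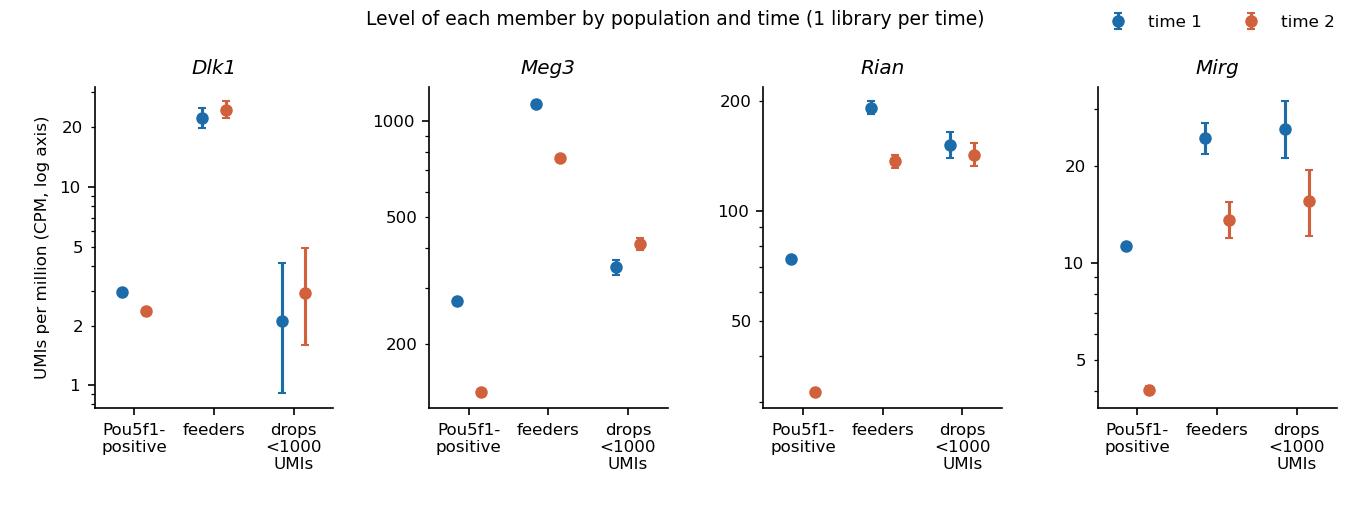
Level of Dlk1, Meg3, Rian and Mirg in CPM (log axes, scaled separately per gene) in Pou5f1-positive cells, feeders and drops under 1000 UMIs, at time 1 (blue) and time 2 (orange). Points are summed libraries and bars 95% counting intervals. Meg3 lies at 273 and 141 CPM in Pou5f1-positive cells and at 1134 and 764 CPM in feeders.

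To compare single cells at 1 depth, each cell was thinned at random to 18000 UMIs. A cell was called on for a gene at 3 or more UMIs and off at 0, and cells at 1 or 2 UMIs were counted apart as near the threshold. Meg3 was on in 13172 of 21839 Pou5f1-positive cells at time 1, or 60.3% (59.7 to 61%), and in 7557 of 24810 at time 2, or 30.5% (29.9 to 31%). It was off in 2980 cells, or 13.6% (13.2 to 14.1%), at time 1 and in 11180, or 45.1% (44.4 to 45.7%), at time 2. Cells near the threshold made up 26% and 24.5%. Without thinning, 95.4% and 72.6% of cells held at least 1 Meg3 UMI.

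The counts of Meg3 formed 1 broad distribution without a gap between off and on cells. Counting noise and free RNA can fill the low counts at this depth, so the lack of a gap does not show whether cells fall into distinct groups. At time 1, 13.6% of cells had 0 UMIs, 14.2% had 1, 11.9% had 2, 10.7% had 3 and 8.96% had 4. At time 2 the shares were 45.1%, 16.2%, 8.32%, 6.06% and 4.71%. The time 1 counts peaked at 1 UMI and declined from there, whereas those of time 2 declined from 0. The mean of 4.91 UMIs per cell at time 1 would leave 0.739% of cells at 0 if all cells shared 1 level, and the mean of 2.5 at time 2 would leave 8.19%. The variance was 5.38 times the mean at time 1 and 6.64 times at time 2. Cells that were on held a median of 6 Meg3 UMIs at both times and a mean of 7.51 and 7.14. Since on cells are chosen by their Meg3 count, these values have a floor and do not show whether the level within on cells differed.

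In the deeper cells, thinned to 40000 UMIs, the low end was resolved further. Of 12731 such cells at time 1, 6.52% had no Meg3 UMI, and the most frequent count was 1 UMI, in 1137 cells, against 830 at 0. Of 18242 such cells at time 2, 31.5% had none, and the counts declined from 5739 cells at 0 over 3026 at 1 to 1413 at 2. No second peak above 0 was seen at time 2. This setting left out 9108 cells at time 1 and 6568 at time 2, and was added after the data had been seen.

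Rian was on in 18.1% (17.5 to 18.6%) of Pou5f1-positive cells at time 1 and in 6.42% (6.12 to 6.73%) at time 2. Its off share was 38.3% and 68.6%. The variance of Rian was 2.1 times the mean at time 1 and 2.12 times at time 2. Mirg was on in 79 cells at time 1, or 0.362% (0.286 to 0.451%), and in 9 at time 2, or 0.0363% (0.0166 to 0.0689%), and 17.3% and 6.28% of cells held at least 1 Mirg UMI. Dlk1 was on in 9 cells, or 0.0412% (0.0188 to 0.0782%), and in 12, or 0.0484% (0.025 to 0.0845%), with overlapping intervals. At least 1 Dlk1 UMI was found in 4.88% and 3.76% of cells. The counts of Mirg and Dlk1 had variances of 1.12 to 1.24 times the mean, a ratio that stays near 1 at such low means, so on and off cells cannot be told apart for them at this depth.

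**Figure D2:**
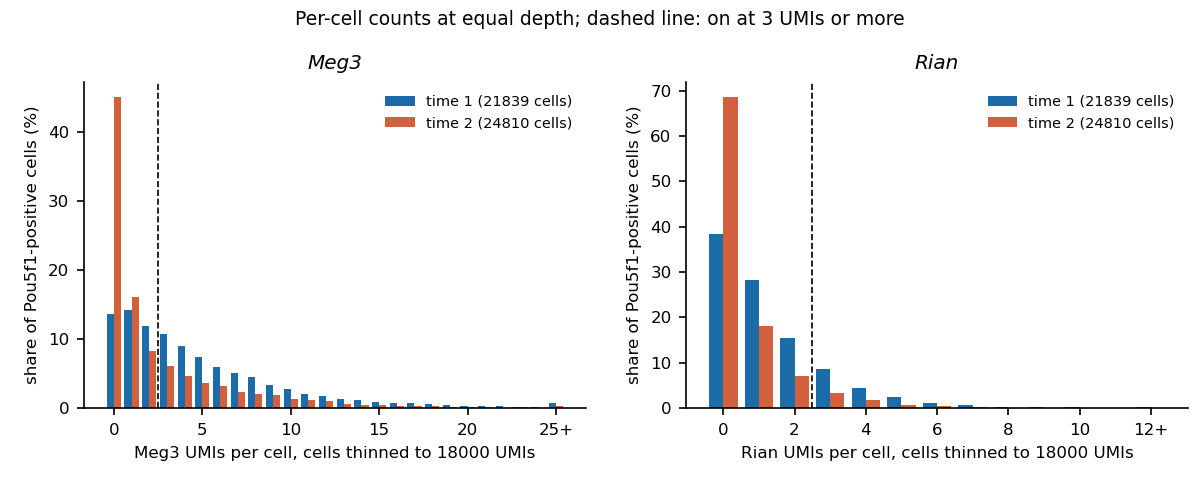
Share of Pou5f1-positive cells (percent) by the number of Meg3 UMIs (left) and Rian UMIs (right) after thinning each cell to 18000 UMIs, at time 1 (blue, 21839 cells) and time 2 (orange, 24810 cells), with the highest counts pooled in the last bar. The dashed line marks the on threshold of 3 UMIs. Meg3 at 0 UMIs covers 13.6% of cells at time 1 and 45.1% at time 2, with no gap between off and on cells.

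Feeders were mostly on for Meg3, in 159 of 209 cells at time 1, or 76.1% (69.7 to 81.7%), and in 218 of 309 at time 2, or 70.6% (65.1 to 75.6%). They were off in 14.4% (9.9 to 19.9%) and 19.4% (15.2 to 24.3%), shares whose intervals overlap. The median was 15 Meg3 UMIs at time 1 and 10 at time 2, and the highest cell had 138 and 123. Rian was on in 41.6% and 33% of feeders. Dlk1 was on in 8 feeders at time 1, or 3.83% (1.67 to 7.4%), and in 20 at time 2, or 6.47% (4 to 9.82%). Dlk1 UMIs were concentrated in few feeders, with up to 12 UMIs in a cell at time 1 and 30 at time 2 and variances of 5.63 and 11.1 times the mean.

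The maternal RNAs went together from cell to cell. The following values are from Pou5f1-positive cells with at most 1 fibroblast marker UMI. At time 1, Rian was found in 66.5% of 15712 cells with Meg3 and in 30.5% of 2669 cells without it, both at 18000 UMIs. At time 2, these shares were 47.3% of 12067 cells and 10.9% of 10353 cells. Mirg was found in 18.8% of cells with Meg3 and 6.93% of those without at time 1, and in 9.72% and 1.93% at time 2. The same contrast gave 4.82% and 2.47% for Dlk1 at time 1 and 4.45% and 2.28% at time 2, so Dlk1 RNA was also more often found in cells with Meg3. The parental copy it came from was not read. Across cells, the Pearson correlation of Meg3 with Rian was 0.68 over 18381 cells at time 1 and 0.77 over 22420 at time 2, that of Meg3 with Mirg 0.33 and 0.40, and that of Meg3 with Dlk1 0.10 and 0.16. The cells of a value share 1 library, and sparse counts pull correlations towards 0.

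Levels of Rian followed the Meg3 count of the cell over the whole range. At time 1, Rian stood at 21.4 CPM in cells with 0 Meg3 UMIs, 37 CPM at 1 to 2, 79.9 CPM at 3 to 9, 155 CPM at 10 to 19 and 289 CPM at 20 or more. At time 2 the levels were 6.71, 20.4, 57.9, 125 and 230 CPM. Rian was lower at time 2 within each bin, but the bins do not hold Meg3 equal. Over all UMIs of these cells, Meg3 stood at 33.3, 95.9, 297, 672 and 1249 CPM at time 1 and at 13.7, 78.8, 273, 633 and 1190 CPM at time 2. Mirg went from 4.14 to 35.9 CPM over the same bins at time 1 and from 1.09 to 22.7 CPM at time 2. Dlk1 covered a narrower range, from 1.35 to 4.35 CPM at time 1 and from 1.24 to 7.68 CPM at time 2. The top bin held 338 cells at time 1 and 135 at time 2.

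Of the other genes of the domain, B830012L14Rik, a noncoding RNA between Rian and Mirg, went from 1.58 to 37.1 CPM at time 1 and from 0.914 to 33.7 CPM at time 2. Rtl1, on the minus strand between Meg3 and Rian, had 0.00719 CPM (1.82e-04 to 0.0401, 1 UMI) in cells without Meg3 and 0.239 CPM (0.198 to 0.286) in on cells at time 1. The values at time 2 were 0.0434 CPM (0.0281 to 0.064) and 0.298 CPM (0.246 to 0.358). Dio3 stood at 0.784 CPM (0.644 to 0.946) in the lowest and 1.49 CPM (0.964 to 2.2) in the highest bin at time 1, a narrower range whose ends do not overlap. At time 2 Dio3 had 1.19 CPM (1.11 to 1.29) and 1.33 CPM (0.607 to 2.52, 9 UMIs), which overlap. The bins between did not rise at time 2. Dio3 stood there at 1.28 CPM at 1 to 2 Meg3 UMIs, 0.996 CPM (0.887 to 1.11) at 3 to 9 and 1.01 CPM (0.783 to 1.28) at 10 to 19. Begain, at the Dlk1 side of the domain, was at 0.777 CPM in off and 1 CPM in on cells at time 1 and at 0.539 and 0.722 CPM at time 2. AF357359, AF357426, AF357355, AF357425 and Gm37899 were on the list but not among the gene names of the files.

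**Figure D3:**
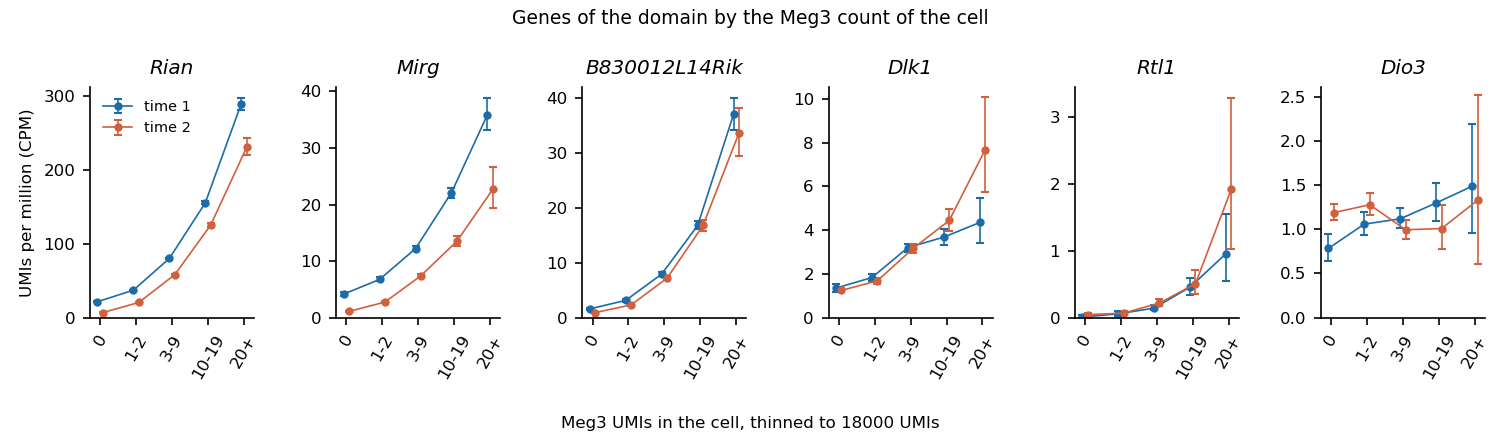
Level in CPM of 6 genes of the domain (1 panel each, own scale from 0) against the Meg3 UMIs of the cell at 18000 UMIs, in Pou5f1-positive cells with at most 1 fibroblast marker UMI, at time 1 (blue) and time 2 (orange). Bars are 95% counting intervals. Rian runs from 21.4 to 289 CPM at time 1 and from 6.71 to 230 CPM at time 2, while Dio3 runs from 0.784 to 1.49 CPM at time 1.

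Meg3-on cells were then set against Meg3-off cells over all genes, within each library and among the same cells with at most 1 fibroblast marker UMI. There were 10835 on and 2669 off cells at time 1, with median depths of 40816 and 47897 UMIs, and 6595 and 10353 at time 2, with 50440 and 48891. The groups of time 1 also differed in X dosage, the X-linked share of UMIs defined below. Its median was 1.6 in off cells, against 1.08 at 3 to 9, 1.02 at 10 to 19 and 1.04 at 20 or more Meg3 UMIs. At time 2 these medians were 0.989, 1, 1.02 and 1.03. Rian was higher in on cells, at 104 against 21.4 CPM at time 1 (log2 ratio 2.23, 2.18 to 2.28) and at 72.8 against 6.71 CPM at time 2 (3.26, 3.21 to 3.30). Mirg had log2 ratios of 1.66 (1.56 to 1.76) and 2.22 (2.15 to 2.29), and B830012L14Rik 2.21 (2.08 to 2.33) and 2.44 (2.36 to 2.51). The share of genes at least 2-fold higher in on cells was 2.43% of 9432 at time 1 and 0.71% of 8867 at time 2, and 1.15% and 0.0789% were at least 2-fold lower. Dlk1, below 5 CPM, had 1.35 CPM in off and 3.34 CPM in on cells at time 1 (log2 ratio 0.89, 0.76 to 1.02) and 1.24 and 3.47 CPM at time 2 (0.995, 0.91 to 1.08).

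The neighbours are genes on either side of the imprinted domain. Of the 11 listed neighbours, 7 reached 5 CPM, and 0 of these were past 2-fold in either direction at either time. With the low shares of all genes past 2-fold given above, a count of 0 among 7 is not particular to the neighbours. Their log2 ratios lay between -0.38 for Hsp90aa1, a chaperone, and 0.41 for Evl, an actin regulator, at time 1, and between -0.16 and 0.38 for the same genes at time 2. The median over the 7 was 0.10 and 0.01, against 0.04 and 0.03 over all genes tested. The nearest tested neighbours, Wars and Ppp2r5c, start at -646.8 and 906.1 kb from the start of Meg3. In the same cells the median chromosome 12 ratio, computed without the members, was 1.02 at 0 Meg3 UMIs and 1.02 at 20 or more at time 1, and 1.00 and 1.02 at time 2.

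**Figure D4:**
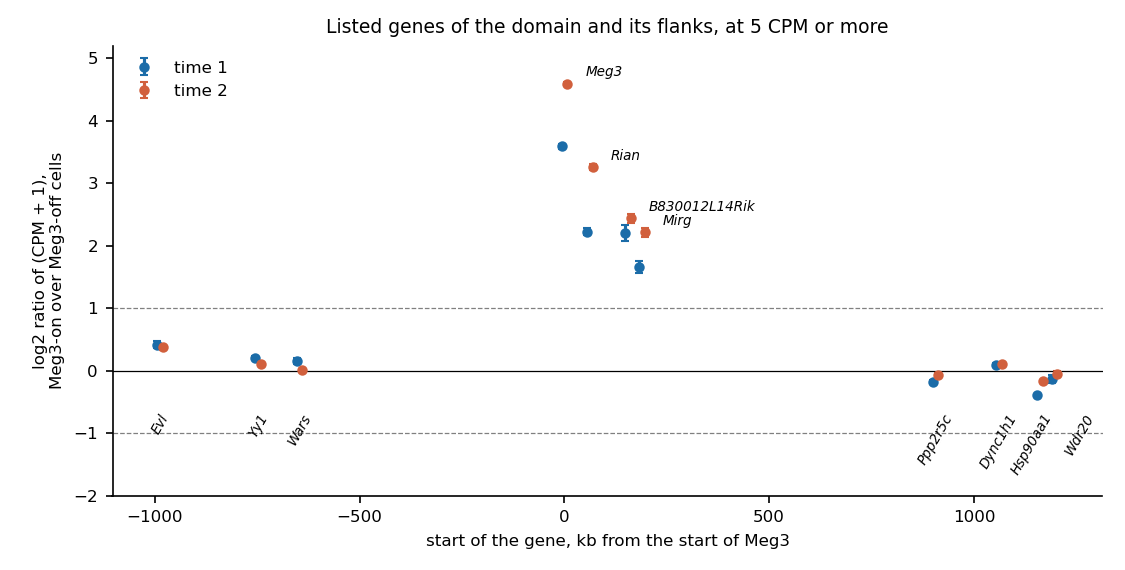
Log2 ratio of CPM plus 1, Meg3-on over Meg3-off cells, of each listed gene with at least 5 CPM against the distance of its start from the start of Meg3 in kb, at time 1 (blue) and time 2 (orange, offset slightly sideways). Bars are 95% counting intervals and dashed lines mark 2-fold. Meg3 defines the groups. Rian, B830012L14Rik and Mirg lie above 2-fold at both times and the 7 neighbours within it.

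Off cells still held some RNA of the domain. Their Rian level was 14.1% of that in drops at time 1 and 4.72% at time 2, and their Mirg level 15.9% and 7.05%. For Meg3, which chose the cells, the values were 9.58% and 3.34%. How much of these levels is free RNA was not tested.

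Meg3 differed between classes of Pou5f1-positive cells set by sex chromosome transcripts. X dosage is the X-linked share of UMIs, set against autosomes and scaled to cells with at least 2 Y-linked UMIs (Y-positive), and cells without a Y UMI were called X-high at 1.2 or more and X-low below it. The 2489 and 1484 cells with 1 Y UMI were kept apart. The classes cannot be assigned to the XX, XO and XY lines, since XX cells can lose or silence an X and Y transcripts are sparse. X-high cells made up 36.7% of Pou5f1-positive cells at time 1 and 12.2% at time 2. X-low cells made up 40.9% and 73.5%, and Y-positive cells 11% and 8.26%. The part of line proportions in these class sizes was not tested. At time 1 Meg3 was on in 45.3% (44.2 to 46.4%) of 8016 X-high cells, 69.5% (68.5 to 70.4%) of 8940 X-low cells and 70.1% (68.2 to 71.9%) of 2394 Y-positive cells. The shares at time 2 were 22.9% (21.4 to 24.4%) of 3035, 30.7% (30 to 31.3%) of 18241 and 40.8% (38.7 to 43%) of 2050. In CPM, Meg3 went from 186 to 105 in X-high, from 337 to 141 in X-low and from 331 to 198 in Y-positive cells. X-high cells had the lowest Meg3 of the 3 classes at both times, and Meg3 was lower at time 2 in each of them. Y-positive cells of time 2 carried a mean of 5.76 fibroblast marker UMIs, against 4.12 in X-high and 1.27 in X-low cells. Their median depths were 56973, 56164 and 49412 UMIs in the same order. The part of either in these Meg3 levels was not tested. X-high and X-low cells also differed in the marker classes described below. At time 1, 1202 of 8016 X-high and 358 of 8940 X-low cells carried naive markers. At time 2 these were 1852 of 3035 and 3070 of 18241. Among cells with neither naive nor primed markers at time 1, X-high cells had 185 CPM and X-low cells 269 CPM. Their on shares were 46.2% and 61.5%. At time 2 the order in this class turned, at 139 CPM (136 to 141) and 127 CPM (126 to 128), with on shares of 28.3% and 28.1%. Among naive-marker cells X-high cells were lower at both times, at 91 against 140 CPM and 78.3 against 95.3 CPM. The part of marker class in the order of the sex chromosome classes was not tested.

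Chromosome gains, the other feature of this culture, went with different Meg3 levels at time 2. A gain was called where a chromosome had at least 1.3 times the median share of time 1, for chromosomes 1, 8 and 14. Cells without a gain were 93.6% of Pou5f1-positive cells at time 1 and 20.3% at time 2. In them Meg3 was on in 61% (60.4 to 61.7%) at time 1 and 38.9% (37.6 to 40.3%) at time 2. Their mean fibroblast marker UMIs were 1.85 and 7.33, against 0.396 to 2 in the gain classes of time 2, and the part of these UMIs was not tested. At time 2 Meg3 was on in 45.3% (43.9 to 46.6%) of 5297 cells with a gain of 8 alone, 26.2% (24.4 to 28.2%) of 2146 with 1 alone and 29% (25.6 to 32.5%) of 701 with 1 and 14. The share was 16% (15.1 to 16.9%) in 7032 cells with 1 and 8, and 27.9% (26.6 to 29.3%) in 4405 with 1, 8 and 14. Cells with 8 and 14, 159 in number, had 40.3%. With all sex chromosome classes pooled, cells with gains of 1 and 8 had the lowest of these shares, with 71.7 CPM of Meg3 (70.9 to 72.5), 17.1 CPM of Rian and 2.05 CPM of Mirg. The place of the cells without a gain depended on the sex chromosome class. Within X-low cells of time 2, Meg3 was on in 55.3% without a gain, 45.8% with 8 alone, 24.5% with 1 alone and 16.2% with 1 and 8. X-low cells with 8 and 14 had 37.9%, those with 1 and 14 had 28.2%, and those with 1, 8 and 14 had 28.9%. Within Y-positive cells the share was 70.8% without a gain and 49.6% with 8 alone, and within X-high cells 22.4% and 27.4% (21 to 34.5%). Within Y-positive cells those with 1, 8 and 14 had 14.6% (10 to 20.4%) and those with 1 and 8 had 16.6% (13.4 to 20.3%), with overlapping intervals. At time 1 X-low cells with 8 alone, at 50.5%, were also below X-low cells without a gain, at 72.2%. With all sex chromosome classes pooled, the shares at time 1 were 50.8% and 61%, the other way round from the pooled 45.3% and 38.9% of time 2. Cells of 1 line or clone share their history, so a class is not a set of independent cells, and lines and gains cannot be told apart here.

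The size of the difference between times depended on the class compared. Among X-low cells without a gain, Meg3 was on in 72.2% (71.2 to 73.2%) of 7810 cells at time 1 and 55.3% (52.9 to 57.7%) of 1745 at time 2, at 355 and 278 CPM, a log2 ratio of -0.35 in place of -0.95 over all Pou5f1-positive cells. Those cells carried a mean of 1.45 fibroblast marker UMIs at time 1 and 8.45 at time 2. Their part in the result was not tested. X-low cells with a gain of 8 alone had 224 CPM at time 1 and 210 CPM at time 2, a log2 ratio of -0.09, while Rian and Mirg had -0.52 and -0.70 there. In X-low cells without a gain these had -0.65 and -0.75. X-low cells with a gain of 1 alone, 97 at time 1, had log2 ratios of -0.97 for Meg3, -1.24 for Rian and -1.30 for Mirg. Among Y-positive cells without a gain the on share was 70.9% (69 to 72.7%) of 2313 cells at time 1 and 70.8% (66.3 to 75.1%) of 439 at time 2, with a mean of 3.41 and 19.2 fibroblast marker UMIs. Meg3 in them was higher at time 2, at 335 CPM (332 to 338) and 356 CPM (350 to 363), while Rian had 85.7 and 75.9 CPM. X-high cells without a gain had 186 and 104 CPM, a log2 ratio of -0.83, with a mean of 1.72 and 4.45 fibroblast marker UMIs.

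For chromosome 12 itself only the share of UMIs was measured, not the number of copies. Its median ratio varied little, from 0.988 to 1.03 over 25 sex chromosome, gain and marker classes of at least 50 cells. A class median does not show a minority of altered cells. A ratio of 1.3 or more was reached in 155 cells at time 1 and 108 at time 2. Meg3 in them stood at 321 and 272 CPM, with on shares of 44.5% (36.5 to 52.7%) and 40.7% (31.4 to 50.6%), against 60.4% and 30.4% in the rest. Their median X dosage was 1.67 at time 1, against 1.12 in the rest, and 1.03 against 1 at time 2. The part of sex chromosome class in these shares was not tested.

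Meg3 was lower in cells with naive markers and higher in cells with primed markers. Naive-marker cells had at least 10 UMIs over 3 or more of Tbx3, Klf4, Tfcp2l1, Prdm14, Nanog and Esrrb at 18000 UMIs, and primed-marker cells the same over Fgf5, Fgf8, Otx2, Pou3f1 and Dnmt3b. At time 1 Meg3 was on in 29.7% (27.6 to 31.9%) of 1786 naive-marker cells, 55.6% (54.8 to 56.4%) of 15205 cells of neither class and 86.5% (85.5 to 87.5%) of 4807 primed-marker cells. At time 2 the shares were 20.6% (19.6 to 21.7%) of 5484, 28.9% (28.2 to 29.6%) of 17175 and 67.7% (65.7 to 69.7%) of 2141. Rian followed, at 33.9, 64.1 and 121 CPM at time 1 and 21.8, 29.7 and 77.1 CPM at time 2. The order also held within X-low cells, with on shares of 40.2%, 61.5% and 87.8% at time 1 and 22.8%, 28.1% and 65.6% at time 2. Naive-marker cells made up 8.18% of Pou5f1-positive cells at time 1 and 22.1% at time 2, and primed-marker cells 22% and 8.63%. The classes are ranges of a score: 1287 cells at time 1 lay just under the naive limit, at 8 or 9 marker UMIs, with an on share of 42.7%, and 761 just above it, at 10 or 11, with 39.6%. At time 2 these shares were 22.7% and 23.4%, the other way round. Around the primed limit they were 76.7% and 80.9% at time 1 and 52.4% and 59.5% at time 2.

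Smaller marker classes among all filtered cells were on for Meg3 in part. Mesendoderm-marker cells had on shares of 72.1% (66.1 to 77.7%) of 244 and 58% (51.8 to 64%) of 269 at the 2 times. Extraembryonic endoderm-marker cells had 64.4% (50.9 to 76.4%) of 59 and 27% (18.6 to 36.8%) of 100. Those with trophoblast markers had 34.4% (18.6 to 53.2%) of 32 and 20% (8.44 to 36.9%) of 35. Two-cell-marker cells had 46% (31.8 to 60.7%) of 50 at time 1 and 0 of 15 at time 2 (0 to 21.8%), where the limit set by 3 cells would be 20%.

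**Figure D5:**
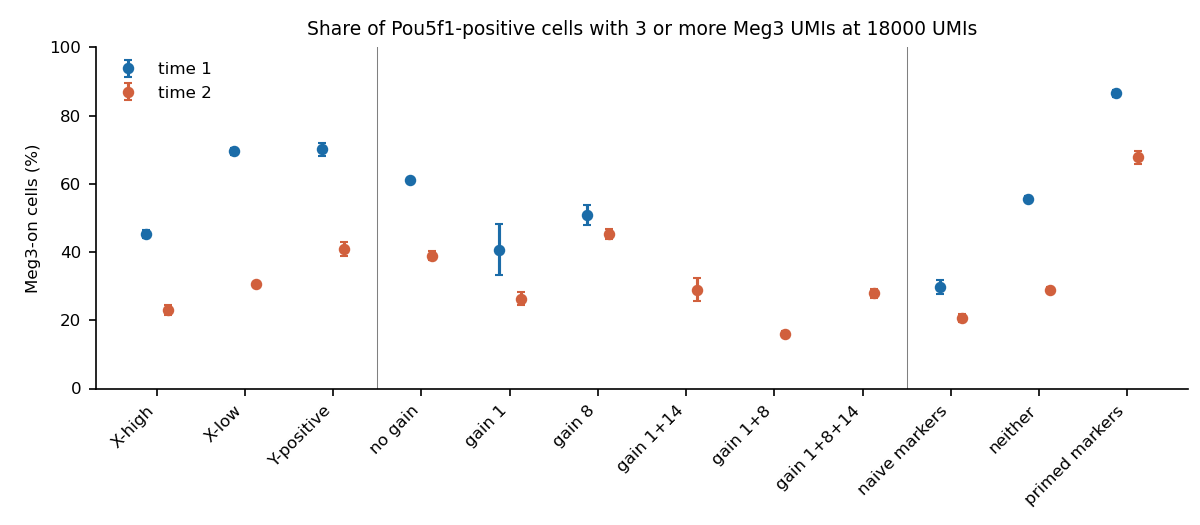
Share of Pou5f1-positive cells (percent) with 3 or more Meg3 UMIs at 18000 UMIs by sex chromosome class, chromosome gain and marker class, at time 1 (blue) and time 2 (orange), with 95% counting intervals. Combinations of gains that few cells had at time 1 have no blue point. The lowest share is 16% in cells with gains of chromosomes 1 and 8 at time 2, and the highest 86.5% in primed-marker cells at time 1.

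Unlike Meg3, Dlk1 was not lower at time 2 in every sex chromosome class. Its level went from 2.27 CPM (2.13 to 2.43) to 2.75 CPM (2.53 to 3) in X-high cells and from 3.25 CPM (3.08 to 3.42) to 2.18 CPM (2.1 to 2.27) in X-low cells. Mean fibroblast marker UMIs per cell went from 1.71 to 4.12 in the former and from 1.36 to 1.27 in the latter. In Y-positive cells without a gain Dlk1 stood at 3.68 CPM (3.37 to 4.01) early and 8.13 CPM (7.2 to 9.15) later, where the mean fibroblast UMIs were 19.2. The part of fibroblast RNA in these Dlk1 levels was not tested.

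Regulators of imprints were followed from a list of 18 genes, of which 16 reached 5 CPM in Pou5f1-positive cells. Between the times Tet2, an enzyme that oxidises methylated cytosine, was past 2-fold higher at 13.3 and 27.9 CPM, and none was past 2-fold lower. Over all genes 1.03% were higher and 3.09% lower, so the count of 0 lower among 16 is near that share. The median log2 ratio of the 16 was 0.38, against -0.045 over all genes tested, and 13 lay above 0. Zfp57, a zinc finger protein that keeps imprints methylated, stood at 24.8 and 46.7 CPM (log2 ratio 0.89) and Tet1 at 112 and 179 CPM (0.67). The 3 below 0 were Dnmt3b, a de novo DNA methyltransferase (-0.51), Dppa3, which protects DNA from changes in methylation in the early embryo (-0.47), and Dnmt3l, a cofactor of these enzymes (-0.33). Below 5 CPM in both libraries, Tet3 (4.98 and 3.12 CPM, -0.54) and Ell3 (0.612 and 0.306 CPM, -0.30) were also lower at time 2.

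Between Meg3-on and Meg3-off cells 2 regulators of 17 tested were past 2-fold at time 1, 1 in each direction, beside 2.43% of all genes higher and 1.15% lower. Dnmt3b was higher in on cells, at 232 against 87.5 CPM at time 1 (log2 ratio 1.40) and 196 against 86.6 CPM at time 2 (1.17). Dppa3 was lower, at 174 against 374 CPM at time 1 (-1.10), and at 120 against 188 CPM at time 2 (-0.64), which is within 2-fold. Among X-low cells without a gain, Dppa3 was past 2-fold lower in on cells at both times, with log2 ratios of -1.55 and -1.26, beside 1.55% and 1.21% of all genes. There Dnmt3b had 1.08 and 0.91, beside 1.9% and 1.72% of genes past 2-fold higher. Rian (2.38 and 2.97), Mirg (1.69 and 1.91) and B830012L14Rik (2.11 and 2.52) stayed past 2-fold in these 4687 on and 554 off cells of time 1 and 754 on and 335 off cells of time 2. Dnmt3b is also 1 of the 5 primed markers, so its difference overlaps with that of the marker classes.

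Other imprinted genes were listed for comparison. Of 13 genes, 11 reached 5 CPM in Pou5f1-positive cells between the times, with a median log2 ratio of -0.27 against -0.045 over all genes tested. Of the 11, 2 were past 2-fold lower and 0 higher, beside 3.09% and 1.03% of all genes. H19, a maternal noncoding RNA, was past 2-fold lower at 98.6 and 17.9 CPM (-2.40), and Peg10, a paternally expressed gene, at 69.5 and 31.1 CPM (-1.13). The others lay between -0.47 for Igf2r and 0.41 for Zdbf2. Between Meg3-on and Meg3-off cells H19 went the other way from Meg3, at 78 against 145 CPM at time 1 (-0.89) and 12.9 against 18.9 CPM at time 2 (-0.52). Grb10, an adaptor of growth factor receptors, was past 2-fold higher in on cells at time 1 (1.75) and at 0.14 at time 2. Cdkn1c, a cell cycle inhibitor, stood at 1.001 and 0.88, just past and just inside 2-fold. Among X-low cells without a gain Cdkn1c had 0.37 (0.27 to 0.47) and 0.55, Grb10 1.34 and 0.86, and H19 -1.004 and -1.25. Igf2, the growth factor gene beside H19, was also past 2-fold lower in on cells there at time 2, at 1.88 against 7.33 CPM (-1.53), and under 5 CPM in both groups at time 1.

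The genes whose log-normalised level was most like that of Meg3 over Pou5f1-positive cells, with the members left out and by the smaller Pearson correlation of the 2 libraries among 11949 genes, were Dnmt3b (0.47 at time 1 and 0.38 at time 2), B830012L14Rik (0.37 and 0.45), Gja1 (0.50 and 0.37), Pim2 (0.39 and 0.35) and Sema6a (0.43 and 0.35). The members themselves had 0.68 and 0.78 (Rian), 0.34 and 0.41 (Mirg) and 0.10 and 0.17 (Dlk1) by this measure. Gja1, a gap junction protein, stood at 71.2 and 35.9 CPM at the 2 times, Pim2, a kinase, at 66.9 and 33 CPM, and Sema6a, a semaphorin, at 36.3 and 13.7 CPM. All of these were also lower at time 2 in Pou5f1-positive cells, where the median log2 ratio of all genes tested was below 0 too, at -0.045. For Dlk1 the highest values were those of Mdk (0.12 and 0.18), Pfn1 (0.11 and 0.13) and Tuba1a (0.10 and 0.15), too weak in such sparse counts to be read as a likeness. The correlations run over 21839 and 24810 cells that share a library each.

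Summed Meg3 levels were similar over depths, while the thinned shares at time 1 differed. Over 4 groups of equal cell number by depth, Meg3 stood between 259 and 277 CPM at time 1 and between 134 and 145 CPM at time 2. The thinned on share lay between 56.7% and 67.8% at time 1, highest in the shallowest group, and between 28.4% and 33.5% at time 2, highest in the deepest. The off share at time 1 was 7.62% in the shallowest group and 14.6%, 16.3% and 16% in the deeper ones, and at time 2 it lay between 40.3% and 47.3%. The on share of each group at time 1 was above those of all groups at time 2.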

How the data were processed

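For each of 2 droplet libraries, 1 per time, the authors deposited a matrix of raw UMI counts, whole numbers without normalization. Per the submitters' processing notes, reads were handled with bcl2fastq 2.20.0.422 and Cell Ranger 6.1.2 on mm10 (GRCm38). Of 32285 gene identifiers 32235 matched GENCODE M21 (GRCm38). The deposited counts summed to 1735810403 UMIs in 145288 barcodes at time 1 and 1843588321 UMIs in 52242 barcodes at time 2.

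Cells were kept at 18000 UMIs and 1000 genes or more, with no more than 10% of UMIs mitochondrial. Scrublet (scanpy 1.11.5) removed 2923 doublets (11.3%) at time 1 and 2651 (9.36%) at time 2 at the median score of simulated doublets, since its automatic threshold marked 6 and 1. UMIs were summed per group. Log2 ratios are of CPM plus 1. Counts have exact Poisson and shares exact Clopper-Pearson 95% intervals, for counting error only. Genes with at least 5 CPM in either group entered counts past 2-fold, and no p-value was computed. Thinning drew UMIs without replacement. Marker classes used thinned counts and feeder calls all UMIs. X dosage and gains used all UMIs of 11374 autosomal, 403 X-linked and, for chromosome 12, 407 genes, with chromosomes 1, 8, 12 and 14 left out of the denominator. Correlations used log of 1 plus UMIs per 10000.

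The members and lists were chosen with earlier results of these data known. The named genes are the members, all genes of the lists, and the 5 genes most like Meg3 and 3 most like Dlk1. The X dosage, gain, naive-marker and primed-marker classes, the Meg3-on against Meg3-off comparison, its limit of 1 fibroblast UMI, the doublet threshold and thinning to 40000 UMIs were chosen after the data had been seen. Alternatives included TMM scaling (edgeR 4.0.16) on the summed counts. The scripts were tested on simulated data. The labels give no separate cultures. Analyses ran in R 4.3.3 and in Python 3.11.15 with pandas 2.3.3, scipy 1.17.1 and numpy 2.4.6.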

Additional observations from a re-analysis of the deposited data

Results flagged for a closer look

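Dlk1 went in opposite directions between the times in 2 pairs of groups. In Pou5f1-positive cells its log2 ratio, time 2 over time 1, was -0.225, and in feeders 0.133, the latter with an interval that spans 0. In X-high cells it was 0.198 and in X-low cells -0.418. Each group has 1 library per time, so neither difference was tested. The level of Dlk1 in Pou5f1-positive cells is under 5 CPM at both times.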

How the results depend on the processing

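The members' log2 ratios between the times over all Pou5f1-positive cells and over feeders kept their sign under the alternatives run. No alternative was run for ratios within classes or of listed genes, and some of these, such as -0.09 for Meg3 in X-low cells with a gain of 8, are smaller than the TMM shift of the median from -0.045 to 0.065. In Pou5f1-positive cells Meg3 ranged from -1.01 to -0.84, Rian from -1.25 to -1.08, Mirg from -1.47 to -1.20 and Dlk1 from -0.30 to -0.14. Of 32 alternatives there, 11 lay outside the counting interval. TMM scaling gave -0.84 for Meg3, -1.08 for Rian, -1.20 for Mirg and -0.14 for Dlk1, and -0.50 for Meg3 in feeders. A pseudocount of 0.1 CPM gave -1.21 for Rian, -1.47 for Mirg and -0.30 for Dlk1. At least 20 Pou5f1 UMIs gave -0.94 for Meg3. Cells with at most 1 fibroblast marker UMI gave -1.01 for Meg3, -1.25 for Rian and -1.34 for Mirg.

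The on shares depend on threshold and depth by construction, and the values follow as time 1 and time 2. At 1 or more UMIs they were 86.4% and 54.9% for Meg3, 61.7% and 31.4% for Rian, 17.3% and 6.28% for Mirg and 4.88% and 3.76% for Dlk1. At 5 or more UMIs they were 40.7% and 19.7%, 5.07% and 1.39%, 0.0183% and 0%, and 0.00458% and 0.0161% in the same order. Thinning to 10000 UMIs gave 40.5% and 20.1% for Meg3, 7.04% and 2.18% for Rian, 0.101% at time 1 for Mirg, and 0.00458% and 0.0202% for Dlk1. Without thinning the shares were 80.9% and 47.4%, 46.6% and 24.3%, 4.96% and 1.39%, and 0.49% and 0.504%. Cells thinned to 40000 UMIs gave 76.6% and 44.2%, 42.3% and 17.5%, 2.52% and 0.488%, and 0.181% and 0.241%. With doublets kept Meg3 had 61.3% and 31.1%. At least 20 Pou5f1 UMIs gave 58.2% for Meg3 and 17.5% for Rian at time 1. With at most 1 fibroblast marker UMI the values were 58.9% and 29.4% for Meg3, 5.97% for Rian at time 2 and 0.0178% for Dlk1 at time 2. Meg3, Rian and Mirg were lower at time 2 under each of these settings, and Dlk1 had a lower share at time 2 only at 1 or more UMIs and with at most 1 fibroblast marker UMI. With a minimum of 50 CPM, which tests fewer genes, 33 genes were at least 2-fold higher and 60 lower at time 2, in place of 97 and 290.

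No paired analysis was possible because each time has 1 library and no result comes from a test. Free RNA limits what a single UMI of Meg3 or Rian shows, and depth limits on and off calls for Mirg and Dlk1.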
